A study of Mus musculus with 16 samples.

Results

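Kidney RNA was examined for 7 genes that build, load or switch on the MHC class II molecule. They were the α chain H2-Aa, the β chains H2-Ab1 and H2-Eb1, the peptide exchange factor chains H2-DMa and H2-DMb1, the invariant chain Cd74 and the transactivator Ciita. Members were the rows of the gene count table that carry these symbols, and the 7 rows were found among 57186 genes. The 7 members passed the minimum of 100 counts summed over the libraries, as did 25408 genes in all. Total counts ran from 65271308 to 91771136 per library.

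Total RNA was sequenced from kidneys of 16 male mice on a C57BL/6J background, with 4 mice in each of 4 groups. The non-diabetic mice were Elmo1H/H Ins2+/+, and the diabetic mice were Elmo1H/H Ins2Akita/+. The Elmo1H/H genotype, which raises expression of the engulfment gene Elmo1, was carried by every group, so no group shows kidneys with the ordinary level of Elmo1. The Akita allele of Ins2 makes a misfolded proinsulin in pancreatic beta cells, so diabetes in these mice follows loss of insulin and not obesity. Untreated groups are called ND_C and D_C, and the groups given vitamin B12 in drinking water at 10 mg/kg per day from 8 weeks of age are called ND_B12 and D_B12. The labels give 16 weeks of treatment and the methods of the study give a shorter course. The labels call the 4 libraries of a group biological replicates.

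MHC class II molecules carry peptides from proteins taken up by a cell to its surface, where CD4+ T cells read them. An α and a β chain assemble in the endoplasmic reticulum on the invariant chain Cd74, which blocks the peptide groove and routes the complex to endosomes. Proteases there trim Cd74 to a short remnant, and the H2-DM heterodimer exchanges that remnant for peptide. Ciita does not bind DNA itself. It is recruited by factors that sit on the conserved X and Y boxes of class II promoters, and its own level largely decides whether a cell makes class II. Dendritic cells and B cells make class II constitutively, macrophages do so in part, and tubular epithelium and endothelium can be induced by interferon gamma. In whole-kidney RNA, fewer class II positive cells and less class II RNA per cell cannot be told apart.

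The groups are those of the labels, and the labels did not match the published group means. Mean normalized counts of 175 genes fitted other sets of 4 libraries, which put 5 of the 16 libraries in the group of their label and 11 in another. Diabetes status differed for 2 libraries, ND_B12 4 and D_C 1. The 4 libraries labelled D_B12 fitted the published untreated diabetic means, and D_C 2, 3 and 4 fitted the treated ones, so a direction for B12 in diabetic kidneys holds for the labels alone. ND_C 3 fitted the published treated non-diabetic means and ND_B12 1 the untreated ones. A direction for B12 in non-diabetic kidneys thus holds for the labels alone too. The diabetes results of the members are therefore given with all 16 libraries and with the 14 whose status is the same in both sources. The dates in the library names followed the groups as well, since the libraries of D_B12 bear the latest 4 dates and no date holds both D_C and D_B12 libraries.

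The 4 members with promoter entries in RefSeq (GRCm38.p6) were H2-Aa, H2-Eb1, H2-DMb1 and H2-DMa. H2-Ab1, Cd74 and Ciita were not matched. The 120 bases before the start site are printed for 3 of them, because the members moved together across libraries and these stretches hold the letters by which class II promoters are known. Capitals mark the Y box letters ATTGG, or CCAAT where they lie on the other strand, and the letters ACTGATGA, which were chosen after the sequences were seen.
H2-Aa (chr17:34287824-34287943, minus strand): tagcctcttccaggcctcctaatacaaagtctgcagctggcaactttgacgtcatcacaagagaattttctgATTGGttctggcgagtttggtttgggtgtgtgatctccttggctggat
H2-Eb1 (chr17:34305747-34305866, plus strand): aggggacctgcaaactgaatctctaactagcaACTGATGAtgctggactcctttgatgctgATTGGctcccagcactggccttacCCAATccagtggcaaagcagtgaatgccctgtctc
H2-DMb1 (chr17:34153071-34153190, plus strand): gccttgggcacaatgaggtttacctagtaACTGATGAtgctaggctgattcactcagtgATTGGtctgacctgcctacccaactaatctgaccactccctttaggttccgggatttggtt

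ATTGG began 48 bases before the start site of H2-Aa, 59 before that of H2-Eb1 and 61 before that of H2-DMb1. On either strand these letters occur in 37.4% of 32851 promoter windows of 300 bases, so their presence alone is common. ACTGATGA, found in 0.968% of windows on either strand, stood upstream of ATTGG in H2-Eb1 with 21 bases between them and in H2-DMb1 with 22 bases between them. As these letters were picked from the promoters shown, that share gives no support to the match. The X box core letters ACAGAT were searched on both strands, are held by 13.7% of windows, and were seen only in H2-Aa, 231 bases before the start on the other strand. The fixed arrangement, ACAGAT followed by ATTGG with 10 to 30 bases between them, occurred in 0.237% of windows and in none of the members' windows. Only these exact letters were fixed for the X box, so their absence does not show that a promoter lacks one. Of the 2 windows of H2-DMa, 1 held ATTGG, 198 bases before the start, and neither held ACTGATGA. Such matches describe the letters and show no binding.

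Class II genes were lower in diabetic kidneys. Averaged over treatments, 6 of the 7 members were called lower, by 23.8% to 34.9% (edgeR's quasi-likelihood test with Benjamini-Hochberg adjustment over all genes tested), while 3.02% of all tested genes were called in this comparison and 2.16% were called lower. The seventh, Ciita, had the largest fold difference and the widest error, at 40.5% lower and an adjusted p of 0.0565 in edgeR. The median log2 fold change of the members was −0.60, beside 0.0072 over all tested genes. Without ND_B12 4 and D_C 1, the 7 members were called lower, by 25.2% to 50.4%, against 5.34% of all tested genes called lower in those 14 libraries. Leaving out 1 library at a time, 4 to 7 members were called, with 0.758% to 3.81% of all tested genes called lower. With the label date in the model no member was called by edgeR, and 0.0% of all tested genes were called, so that count says nothing about the members.

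**Figure D1:**
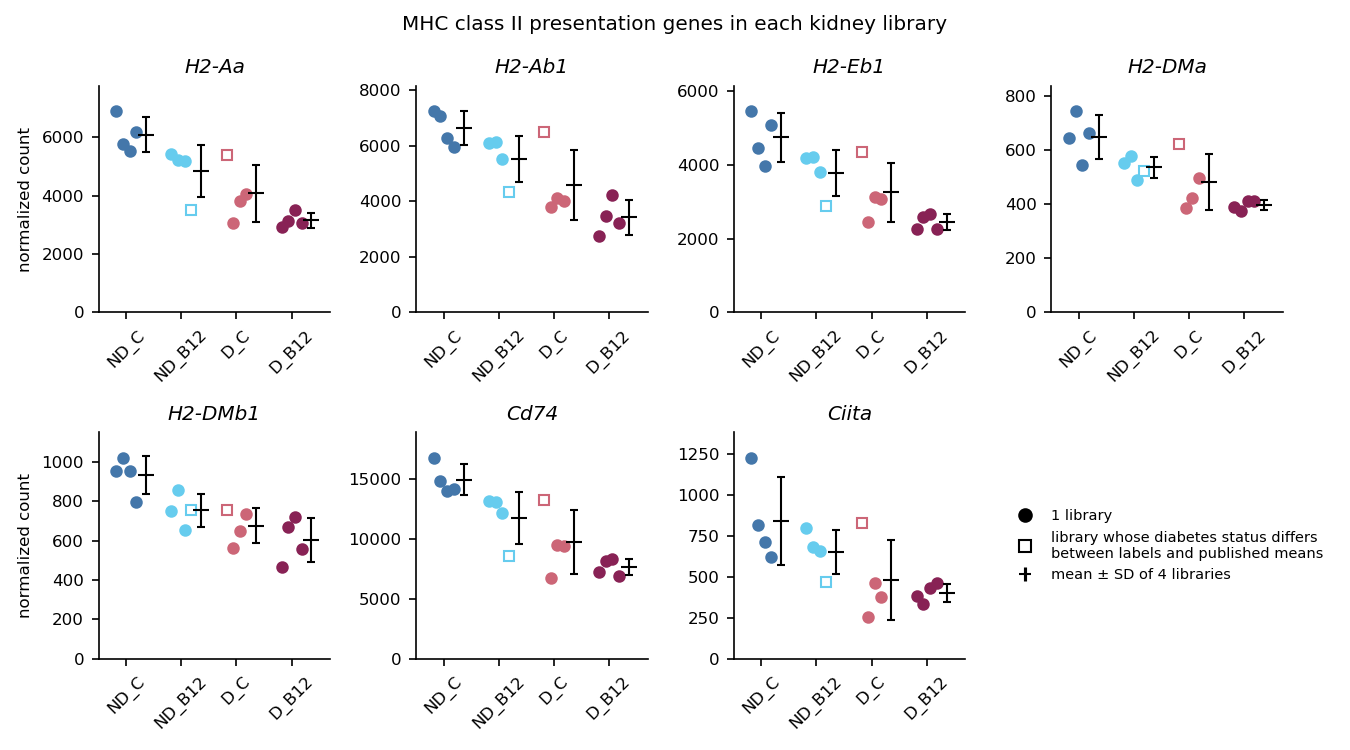
Normalized count of each member in each of the 16 libraries by labelled group, with the mean and SD of 4 libraries beside the points and open squares for ND_B12 4 and D_C 1. The square of D_C 1 lies above the other 3 D_C points in the 7 panels, and the square of ND_B12 4 lies lowest of its group for H2-Aa, H2-Ab1, H2-Eb1, Cd74 and Ciita.

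H2-Aa encodes the α chain of I-A, which is the class II molecule that C57BL/6 mice display. Its gene lies on chromosome 17 from 34493404 to 34506798 on the minus strand (GRCm39, GENCODE). Normalized counts, which are counts divided by a median-of-ratios size factor, were 6886, 5765, 5515 and 6175 in ND_C 1 to 4 and 5434, 5228, 5194 and 3518 in ND_B12 1 to 4. They were 5394, 3056, 3813 and 4046 in D_C 1 to 4 and 2921, 3123, 3497 and 3043 in D_B12 1 to 4. The ND_C libraries lay above each D_C and D_B12 library, and D_C 1 lay among the non-diabetic libraries. H2-Aa fell by 0.60 on the log2 scale over both treatments (SE 0.11, adjusted p = 0.0122 by edgeR). Without the 2 libraries of uncertain status it fell by 0.74 (SE 0.068, adjusted p = 4.42e-05 by edgeR), and the lowest of 7 non-diabetic libraries, 5194, lay above the highest of 7 diabetic libraries, 4046.

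H2-Ab1 encodes the β chain that pairs with H2-Aa, and its gene lies on chromosome 17 from 34476663 to 34488393 on the plus strand. Its normalized counts were 7247, 7062, 6282 and 5963 in ND_C, and 6088, 6123, 5507 and 4351 in ND_B12. They were 6482, 3785, 4102 and 4021 in D_C, and 2750, 3464, 4220 and 3236 in D_B12. The D_C libraries other than D_C 1 lay below each non-diabetic library, as did the 4 D_B12 libraries. H2-Ab1 fell by 0.61 on the log2 scale (SE 0.12, adjusted p = 0.0168 by edgeR), and by 0.77 in the 14 libraries (SE 0.080, adjusted p = 0.000101 by edgeR). The level per length of H2-Ab1 was 1.10 ± 0.083 times that of H2-Aa in non-diabetic libraries and 1.08 ± 0.10 times in diabetic ones (SD, n = 8 each), so both chains of I-A kept about the same ratio.

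H2-Eb1 encodes the β chain of I-E. C57BL/6 mice do not express the partner gene H2-Ea, and H2-Ea was at 0 counts in the 16 libraries, which allows up to 3 counts per library or 0.0327 to 0.0460 CPM (counts scaled to an equal library total). H2-Eb1 lies on chromosome 17 from 34504236 to 34535648 on the plus strand. In this annotation its interval overlaps H2-Aa, which runs on the other strand, and the setting for strand in the counting was not given in the sources used here. The H2-Eb1 transcripts with counts began at 34524813 to 34528549, beyond the end of H2-Aa at 34506798, so this overlap does not reach them. Its normalized counts were 5455, 4464, 3973 and 5086 in ND_C, and 4176, 4222, 3813 and 2878 in ND_B12. They were 4359, 2441, 3117 and 3088 in D_C, and 2263, 2583, 2680 and 2269 in D_B12. ND_B12 4 fell within the range of the diabetic libraries and D_C 1 within that of the non-diabetic ones. H2-Eb1 had a log2 fold change of −0.59 (SE 0.11, adjusted p = 0.0157 by edgeR), close to that of H2-Aa although no I-E can form without its α chain. It was −0.73 in the 14 libraries (SE 0.078, adjusted p = 0.000123 by edgeR).

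Cd74 encodes the invariant chain, on chromosome 18 from 60936899 to 60945731 on the plus strand. Its normalized counts were 16822, 14877, 14026 and 14236 in ND_C, and 13236, 13109, 12191 and 8641 in ND_B12. They were 13301, 6804, 9549 and 9439 in D_C, and 7299, 8173, 8330 and 6940 in D_B12. The ND_C libraries lay above each diabetic library, and with D_C 1 and ND_B12 4 set aside the ND_B12 libraries did too. Cd74 fell by 0.62 on the log2 scale (SE 0.11, adjusted p = 0.0149 by edgeR), and by 0.77 in the 14 libraries (SE 0.076, adjusted p = 8.15e-05 by edgeR). Per length, Cd74 was 2.07 ± 0.079 times the level of H2-Aa in non-diabetic kidneys and 2.04 ± 0.11 times in diabetic kidneys (SD, n = 8 each).

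H2-DMa and H2-DMb1 encode the α and β chains of H2-DM, which stays inside the cell and edits the peptides that class II carries. H2-DMa lies on chromosome 17 from 34338515 to 34358958 and H2-DMb1 from 34372046 to 34379204, both on the plus strand. H2-DMa had 644, 745, 547 and 664 normalized counts in ND_C, and 554, 578, 490 and 524 in ND_B12. It had 623, 386, 424 and 498 in D_C, and 389, 375, 411 and 413 in D_B12. The 4 D_B12 libraries lay below the 8 non-diabetic ones, and over both treatments H2-DMa fell by 0.43 on the log2 scale (SE 0.092, adjusted p = 0.0234 by edgeR). In the 14 libraries it fell by 0.51 (SE 0.082, adjusted p = 0.00175 by edgeR). Leaving out ND_C 2, ND_B12 2 or D_B12 1 raised its adjusted p in edgeR to 0.0533, 0.0551 and 0.0563.

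H2-DMb1 had 955, 1021, 955 and 796 normalized counts in ND_C, and 750, 857, 653 and 754 in ND_B12. It had 756, 565, 649 and 737 in D_C, and 466, 668, 720 and 559 in D_B12. It was the member with the smallest difference, at a log2 fold change of −0.39 (SE 0.095, adjusted p = 0.0375 by edgeR), with −0.42 in the 14 libraries (SE 0.10, adjusted p = 0.0220 by edgeR). Its groups still overlapped there, where the lowest non-diabetic value was 653 and the highest diabetic value 737. The call depended on single libraries: the adjusted p was 0.00315 in DESeq2 and 0.380 when the label date entered the model, and it was below 0.05 in 8 of 22 alternatives. The call was lost when any 1 library other than ND_C 4, ND_B12 4, D_C 1, D_B12 2 or D_B12 3 was left out, with adjusted p-values in edgeR of 0.0529 to 0.0819. H2-DMb1 has a near-identical neighbour, H2-DMb2, so the split of reads between them is uncertain. H2-DMb2 had 222 ± 68.0 normalized counts in non-diabetic and 143 ± 40.2 in diabetic libraries (SD, n = 8 each), which is −0.61 on the log2 scale (SE 0.18, adjusted p = 0.0700 by edgeR).

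Ciita, the transactivator, lies on chromosome 16 from 10297923 to 10347694 on the plus strand. Its normalized counts were 1229, 815, 712 and 621 in ND_C, and 797, 686, 658 and 471 in ND_B12. They were 829, 257, 463 and 376 in D_C, and 387, 337, 433 and 462 in D_B12. ND_C 1 was the highest library by a wide margin and D_C 2 the lowest. The log2 fold change of −0.75 (SE 0.20) did not pass the adjusted threshold with 16 libraries, whereas it was called by DESeq2 (adjusted p = 0.00447) and by edgeR without ND_B12 4 or D_C 1 alone. In the 14 libraries Ciita fell by 1.01 (SE 0.16, adjusted p = 0.00154 by edgeR). There the lowest non-diabetic value was 621 and the highest diabetic value 463.

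In those 14 libraries the non-diabetic and diabetic values did not overlap for 5 members, H2-Aa, H2-Ab1, H2-Eb1, Cd74 and Ciita, whereas 1.53% of all tested genes separated in this way with lower diabetic values. When the libraries were ordered by the mean standardized level of the 7 members, the 8 highest were 7 non-diabetic libraries and D_C 1, and ND_B12 4 came directly after them.

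Within each labelled treatment the differences were of similar size, with less power. Labels and published means disagree on the treatment of ND_C 3, ND_B12 1, the D_C libraries and the D_B12 libraries. The comparisons within a treatment and the interaction thus hold for the labels alone, also without the 2 libraries in doubt on diabetes status. In untreated kidneys the log2 fold changes of the members ran from −0.81 for Ciita to −0.43 for H2-DMa. No member was called by edgeR, with adjusted p-values from 0.0600 for H2-Aa to 0.141 for Ciita, beside 1.66% of all tested genes called. The 7 members had an unadjusted p-value below 0.05, which 9.28% of all tested genes had with lower values. The D_C and ND_C libraries did not overlap for H2-Aa, Cd74 and H2-DMb1, which was so, with lower values in D_C, for 4.58% of all tested genes. DESeq2 called the 7 members (2.91% of all genes called lower), as did edgeR without the 2 libraries in doubt (3.89%). Without D_C 1 edgeR called the 7 members, while calls of lower values rose to 2.98% of all tested genes, and without ND_B12 4 it called 2 members (1.29% of all tested genes called lower).

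In B12-treated kidneys the log2 fold changes ran from −0.69 for H2-Ab1 and Ciita to −0.32 for H2-DMb1. No member was called by edgeR, with adjusted p-values from 0.0565 for H2-Ab1 to 0.232 for Ciita, beside 0.823% of all tested genes called. The 7 members had an unadjusted p-value below 0.05, against 9.20% of all tested genes with lower values. The 4 D_B12 libraries lay below the 4 ND_B12 libraries for 6 members, with H2-DMb1 as the exception, and 6.57% of all tested genes separated in that direction. DESeq2 called 5 members (2.79% of all genes called lower). Without the 2 libraries in doubt edgeR called H2-Aa, H2-Ab1, H2-Eb1 and Cd74 (1.68% of all genes called lower), and it called 4 members when ND_B12 4, D_C 1 or D_C 2 alone was left out, where 0.821%, 0.91% and 1.11% of all tested genes were called lower.

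The diabetes effect was not shown to differ with labelled treatment. The interaction ran from −0.16 for H2-Ab1 (SE 0.23) to 0.14 for H2-DMb1 (SE 0.19) on the log2 scale. Adjusted p-values in edgeR were 0.783 or more for the 7 members, 0 members had an unadjusted p-value below 0.05, and 0.0% of tested genes were called. DESeq2 called 0 members and 923 of all genes.

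**Figure D2:**
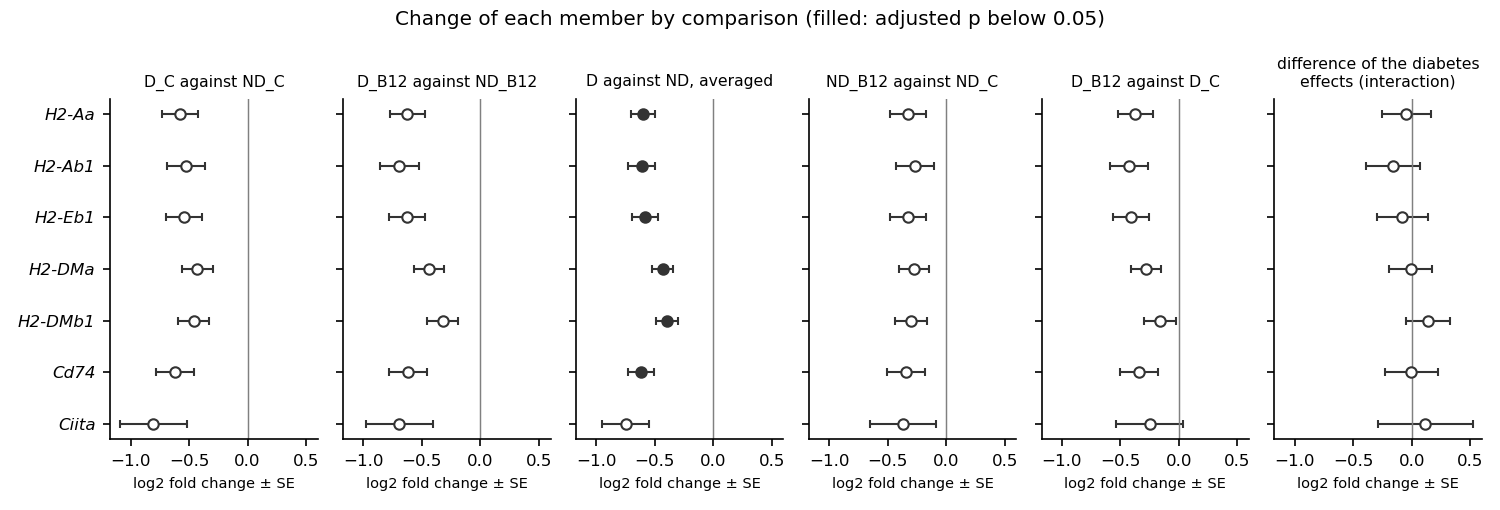
Log2 fold change of each member with its SE in 6 panels, namely the 3 diabetes comparisons, B12 in non-diabetic and in diabetic kidneys, and the interaction; filled points have an edgeR adjusted p below 0.05. Only the averaged diabetes panel holds filled points, 6 of 7, and the interaction panel is centred near 0.

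By label, class II levels were also somewhat lower with B12, but no member was called. In non-diabetic kidneys the log2 fold changes ran from −0.37 for Ciita (SE 0.28) to −0.26 for H2-Ab1 (SE 0.16), with edgeR adjusted p-values of 0.637 to 0.810 and 0.0% of tested genes called. DESeq2 called 0 members and 6 of all genes. Unadjusted p-values were below 0.05 for 3 of 7 members, against 3.95% of all tested genes with lower values. H2-Aa and Cd74 did not overlap between ND_B12 and ND_C, as did not 2.16% of all tested genes in that direction. That separation holds for the labels alone, since ND_C 3 and ND_B12 1 each fitted the other treatment in the published means. For H2-Aa the difference of −0.33 (SE 0.15) became −0.20 without ND_B12 4.

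In diabetic kidneys the log2 fold changes of D_B12 against D_C ran from −0.43 for H2-Ab1 (SE 0.16) to −0.16 for H2-DMb1 (SE 0.13). Adjusted p-values in edgeR were 0.257 to 0.763, and 0.0% of tested genes were called. DESeq2 called 0 members and 681 of all genes. Unadjusted p-values were below 0.05 for 5 of 7 members, against 7.21% of all tested genes with lower values. Without D_C 1 the difference of H2-Aa shrank from −0.37 to −0.19, that of Cd74 from −0.34 to −0.14 and that of H2-Ab1 from −0.43 to −0.20, and Ciita turned to 0.16. The groups overlapped for the 7 members.

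Averaged over diabetes status, the members had log2 fold changes from −0.37 for H2-Eb1 (SE 0.11) to −0.23 for H2-DMb1 (SE 0.095). Unadjusted p-values were below 0.05 for 6 of 7 members, against 3.19% of all tested genes with lower values, and the smallest adjusted p-value in edgeR was 0.841, with 0.0% of tested genes called. DESeq2 called 0 members and 6 of all genes.

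**Figure D3:**
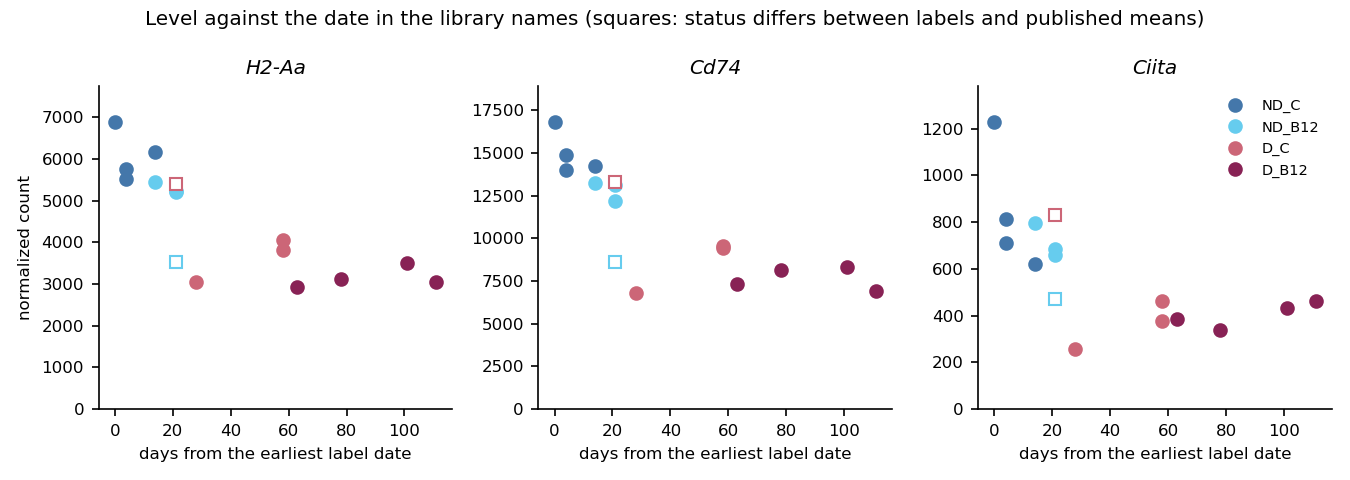
Normalized counts of H2-Aa, Cd74 and Ciita in each library against the days from the earliest date in the library names, coloured by labelled group, with open squares for ND_B12 4 and D_C 1. Non-diabetic libraries cover days 0 to 21 and diabetic libraries days 21 to 111, so level, date and diabetes status move together.

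The date could be separated from diabetes at only 1 date. On 28 August, ND_B12 2, 3 and 4 stood beside D_C 1, and D_C 1 was above the 3 libraries labelled non-diabetic for 6 of 7 members. The published means put D_C 1 among the non-diabetic and ND_B12 4 among the diabetic kidneys. The contrast within this date therefore holds for the labels alone. On 21 August, ND_B12 1 was below ND_C 4 for 5 members and above it for H2-Ab1 and Ciita. The published means put both of these libraries among the untreated non-diabetic kidneys. With the date as a covariate, the log2 fold change for diabetes over both treatments was −0.51 for H2-Aa (SE 0.25, adjusted p = 0.439 by edgeR), −0.43 for Cd74 (SE 0.26, adjusted p = 0.552 by edgeR) and −0.41 for Ciita (SE 0.47, adjusted p = 0.773 by edgeR). The directions were as before and the errors of the estimates were over 2 times larger. What the date marks was not stated in the labels, and its part in the result was not tested further.

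The members differed widely in level. TPM values, which scale each transcript count by its annotated length and the library total, were highest for Cd74, at 195 ± 36.5 in non-diabetic and 134 ± 37.1 in diabetic kidneys (SD, n = 8 each). H2-Ab1 followed with 102 ± 16.1 and 70.7 ± 22.0, H2-Aa with 94.0 ± 17.3 and 65.4 ± 17.4 and H2-Eb1 with 67.3 ± 10.6 and 45.6 ± 17.0, so H2-Ab1 and H2-Aa were within their spread of each other. H2-DMb1 (12.0 ± 1.89 and 9.58 ± 1.78) and H2-DMa (10.3 ± 1.52 and 8.09 ± 1.85) were likewise within their spread. Ciita was lowest, at 2.86 ± 0.949 in non-diabetic and 1.86 ± 0.498 in diabetic kidneys.

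**Figure D4:**
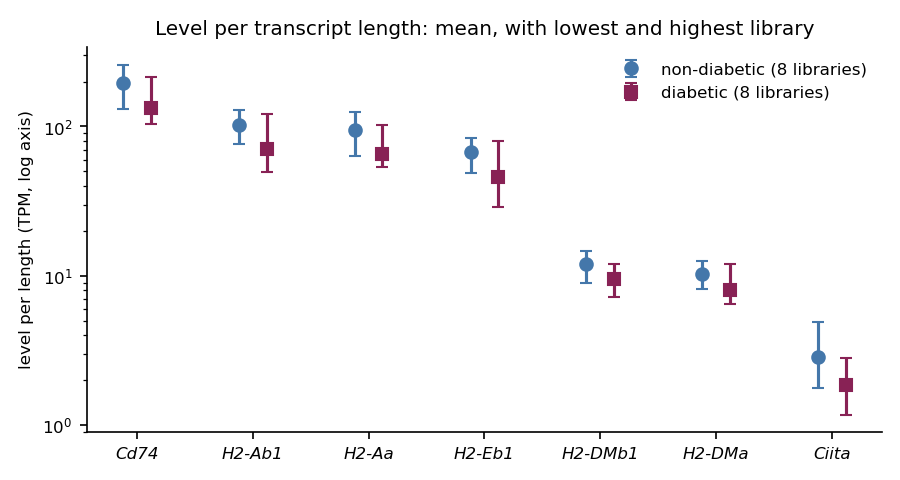
TPM of each member on a log axis, with the mean of 8 non-diabetic (circles) and 8 diabetic (squares) libraries by label and bars from the lowest to the highest library. Cd74 stands at the top with 195 and 134, the I-A and I-E chains lie below it, both H2-DM chains are near 10, and Ciita is lowest with 2.86 and 1.86.

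Library by library the members tracked each other. The Pearson correlation of log2 CPM over the 16 libraries had a median of 0.896 over the 21 pairs and ran from 0.717 for H2-DMb1 and Ciita to 0.989 for H2-Aa with H2-Eb1 and with Cd74. Taken as deviations from the group means the median was 0.671, with 0.963 for H2-Aa and H2-Eb1, 0.962 for H2-Aa and Cd74 and 0.368 for H2-DMb1 and Ciita. Both genes of a pair are read from the same library with its depth and date, and D_C 1 and ND_B12 4 contribute to the deviations, so the values are a description.

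The transcript table gave 2 spliced forms of Cd74. Cd74-202 codes for 279 residues and Cd74-201 for 215, the longer form carrying the extra exon that encodes a thyroglobulin-type domain. Cd74-202 took 67.6 ± 2.07% of their summed counts in non-diabetic and 65.7 ± 2.30% in diabetic libraries (SD, n = 8 each), a difference within the spread between libraries. Of the H2-Aa counts 96.0% went to H2-Aa-201, of the H2-Ab1 counts 94.4% to H2-Ab1-201 and of the H2-DMb1 counts 99.3% to H2-DMb1-201. For H2-Eb1 the estimate was unsteady, since H2-Eb1-205 took 55.2% of counts over all libraries but 0 in 4 of them. H2-DMa-205 took 78.1% of the H2-DMa counts and ranged from 68.8% to 84.3%.

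Ciita has several start sites, which in the mouse are used by different cell types. Transcripts that begin at the upstream start (10297923 to 10298028) took 33.9% of Ciita counts, those at the middle start (10306042 to 10306143) took 57.6% and those at the downstream start (10307610 to 10307647) took 8.53%. The share of the middle start ran from 4.38% to 80.0% across libraries. Normalized counts from the middle start were 507 ± 252 in non-diabetic and 188 ± 194 in diabetic libraries, and those from the upstream start were 178 ± 125 and 219 ± 79.6 (SD, n = 8 each). Because Ciita-201 was at 0 in 5 libraries, these estimated splits were too unsteady for a statement on start use.

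The other genes of the pathway were taken from fixed lists, and the averaged diabetes comparison is given for them. In these lists a gene is said to have fallen where edgeR called it lower, so the others may still have lower values. Of all tested genes, 2.16% were called lower with 16 libraries and 5.34% with the 14 of agreed status. With 16 libraries DESeq2 called 1124 of 25408 tested genes lower. An unadjusted p-value below 0.05 by edgeR, with lower values, was held by 10.5% of all tested genes. Of 5 other class II genes, 4 were tested and none was called, although the 4 had lower values (median log2 fold change −0.68), 2 had an unadjusted p-value below 0.05 and DESeq2 called H2-DMb2. Their most abundant genes were H2-DMb2 and H2-Ob, which encodes a chain of H2-O, the brake on H2-DM in B cells, at −0.43 (SE 0.18, adjusted p = 0.205 by edgeR). Without the 2 libraries in doubt, 2 of the 4 fell. None of 7 class II promoter factors was called by edgeR, with or without these libraries, at a median of −0.072, with 0 unadjusted p-values below 0.05 and 0 calls in DESeq2. Creb1, which binds the X box, was at −0.18 (SE 0.095) and Nfyc, a subunit of the Y box factor NF-Y, at −0.034 (SE 0.044).

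Among 8 genes of class II antigen processing, 6 had lower values and the median was −0.18. DESeq2 called 5 of them, Ctss, Ctsl, Lgmn, Marchf1 and Marchf8, whereas by edgeR only 1 fell. It was Ctss, the protease that removes the last part of Cd74 in dendritic cells and B cells, with 1044 ± 232 normalized counts in non-diabetic and 665 ± 160 in diabetic libraries (SD, n = 8 each), and fell by 0.65 on the log2 scale (SE 0.13, adjusted p = 0.0178 by edgeR). The lysosomal proteases Ctsd and Ctsb, the most abundant of the list and made by most kidney cells, were at 0.015 (SE 0.063) and 0.018 (SE 0.063). Without the 2 libraries in doubt Ctss and the class II ubiquitin ligase Marchf1 fell.

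Of 15 class I presentation genes, 6 fell and the 15 had lower values, at a median of −0.21. The largest were the immunoproteasome subunits Psmb9 at −0.46 (SE 0.11, adjusted p = 0.0404 by edgeR) and Psmb8 at −0.40 (SE 0.092, adjusted p = 0.0307 by edgeR). B2m, the light chain of class I, fell by 0.36 on the log2 scale (SE 0.083, adjusted p = 0.0337 by edgeR) and the peptide editor Tapbpl by 0.31 (SE 0.072, adjusted p = 0.0348 by edgeR). The chaperones Canx and Calr were the most abundant, at −0.079 (SE 0.040) and −0.22 (SE 0.054, adjusted p = 0.0375 by edgeR). Calr was also called in untreated kidneys alone, at −0.32 (SE 0.076, adjusted p = 0.0470 by edgeR). Without the 2 libraries in doubt 8 of the 15 fell, at a list median of −0.26.

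Of 14 genes of the interferon gamma pathway, which induces Ciita, 13 were tested. Ifng itself had 27 counts over the 16 libraries, below the filter. The most abundant, the receptor kinases Jak1 and Jak2, were at 0.011 (SE 0.050) and −0.097 (SE 0.050), and the list median was −0.14. Of 8 costimulation genes, 6 were tested and 2 fell, namely Cd86, a ligand that antigen presenting cells show to T cells, by 0.67 (SE 0.12, adjusted p = 0.0121 by edgeR) and its T cell receptor Cd28 by 0.95 (SE 0.23, adjusted p = 0.0376 by edgeR). In the 14 libraries of agreed status the same 2 fell, Cd86 by 0.74 and Cd28 by 1.16. Icosl and Cd40, the most abundant, were at 0.042 (SE 0.12) and 0.0092 (SE 0.16). Ctla4 and Cd40lg, with 51 and 84 counts over the 16 libraries, were below the filter.

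Markers of the cells that can make class II were lower in part. Of 10 dendritic cell markers 3 fell, at a list median of −0.51: the lectin receptor Cd209a by 0.95 (SE 0.19, adjusted p = 0.0178 by edgeR), Clec10a by 0.92 (SE 0.22, adjusted p = 0.0348 by edgeR) and the integrin Itgax by 0.53 (SE 0.14, adjusted p = 0.0463 by edgeR). The dendritic cell factor Zbtb46, the most abundant of the list, was at 0.12 (SE 0.052). Of the 10 markers, 8 had lower values. Summed over the list, CPM ran from 21.5 to 30.7 in non-diabetic and from 20.3 to 30.3 in diabetic libraries, with no marker at 0 in any library. Zbtb46 had a mean of 12.25 CPM, so these sums give much weight to that gene and say little about the other markers. With ND_B12 4 and D_C 1 left out, 4 of the 10 fell, with Xcr1 as the addition, at a list median of −0.61.

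The 10 macrophage markers had lower values, at a list median of −0.30, and DESeq2 called C1qa, C1qb, C1qc and Csf1r. By edgeR 2 fell, the complement genes C1qa by 0.47 (SE 0.12, adjusted p = 0.0382 by edgeR) and C1qc by 0.41 (SE 0.097, adjusted p = 0.0337 by edgeR). The most abundant were the growth factor receptor Csf1r at −0.30 (SE 0.093, adjusted p = 0.0850 by edgeR) and the lysozyme gene Lyz2 at −0.088 (SE 0.13). The list summed to 70.4 to 120 CPM in non-diabetic and 68.9 to 108 in diabetic libraries, with no marker at 0. In the 14 libraries of agreed status 6 of the 10 fell.

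None of 10 B cell markers was called by edgeR or DESeq2 with the 16 libraries and 1 had an unadjusted p-value below 0.05, at a median of −0.57, with Cr2 at 0.19 (SE 0.11) and Cd79a at −0.86 (SE 0.31) as the most abundant. The list summed to 3.84 to 11.1 CPM in non-diabetic and 3.65 to 8.76 in diabetic libraries, and 3 of its genes were at 0 in some library. With ND_B12 4 and D_C 1 left out, 9 were tested and Cd79a fell, by 1.15 (SE 0.30, adjusted p = 0.0261 by edgeR), at a list median of −0.81. The 5 tested plasma cell markers had lower values, and DESeq2 called Jchain, Pou2af1 and Irf4. By edgeR Jchain fell, by 2.09 (SE 0.33, adjusted p = 0.0116 by edgeR). It was called in untreated kidneys at −1.96 (SE 0.46, adjusted p = 0.0468 by edgeR) and in B12-treated kidneys at −2.23 (SE 0.47, adjusted p = 0.0423 by edgeR). Derl3, the next in level, was at −0.44 (SE 0.27), and Tnfrsf17, with 73 counts over the 16 libraries, was below the filter. The list, led by Jchain, summed to 11.4 to 50.8 CPM in non-diabetic and 4.77 to 14.3 in diabetic libraries, and 2 of its genes were at 0 in some library. In the 14 libraries of agreed status 3 of the 5 fell, namely Jchain, Pou2af1 and Irf4.

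Of 10 T cell markers Cd3g fell, by 1.18 (SE 0.30, adjusted p = 0.0475 by edgeR), with Trac at −0.095 (SE 0.13) and Lck at −0.23 (SE 0.13) as the most abundant and a list median of −0.50. The sum was 4.72 to 11.1 CPM in non-diabetic and 4.43 to 7.46 in diabetic libraries, with 1 gene at 0 in some library. With ND_B12 4 and D_C 1 left out, Cd3g and Cd3e fell, at a list median of −0.67. The leukocyte gene Ptprc was at −0.34 (SE 0.12, adjusted p = 0.112 by edgeR), and fell by 0.46 without the 2 libraries in doubt (SE 0.11, adjusted p = 0.0139 by edgeR). The part of these cells in the class II difference was not tested.

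Lymphoid stroma markers, a sign of attached lymphoid tissue, were not called by edgeR or DESeq2 in any of 4 tested genes and 0 had an unadjusted p-value below 0.05, with Ccl21a at −0.15 (SE 0.17) and Ccl19 at −0.22 (SE 0.18), and Madcam1, with 20 counts over the 16 libraries, was below the filter. The list summed to 3.44 to 5.07 CPM in non-diabetic and 3.28 to 6.06 in diabetic libraries. The 6 perirenal fat markers had 0 calls in either tool and 0 unadjusted p-values below 0.05, with Cfd at 0.74 (SE 1.17) and Plin1 at 0.39 (SE 1.16), and their sum varied from 0.291 to 156 CPM over the 16 libraries. Kidney markers were abundant, with 11729 to 14585 CPM summed over 6 proximal tubule genes. Of these 6 Slc34a1, the phosphate transporter, fell by 0.25 (SE 0.048, adjusted p = 0.0178 by edgeR) and Lrp2 was at −0.14 (SE 0.088). Of 12 markers of other kidney cells Aqp2, the collecting duct water channel, rose by 1.14 (SE 0.27, adjusted p = 0.0348 by edgeR) and by 1.69 in untreated kidneys (SE 0.39, adjusted p = 0.0436 by edgeR), while Umod was at −0.35 (SE 0.092) and Slc12a1 at 0.067 (SE 0.11).

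**Figure D5:**
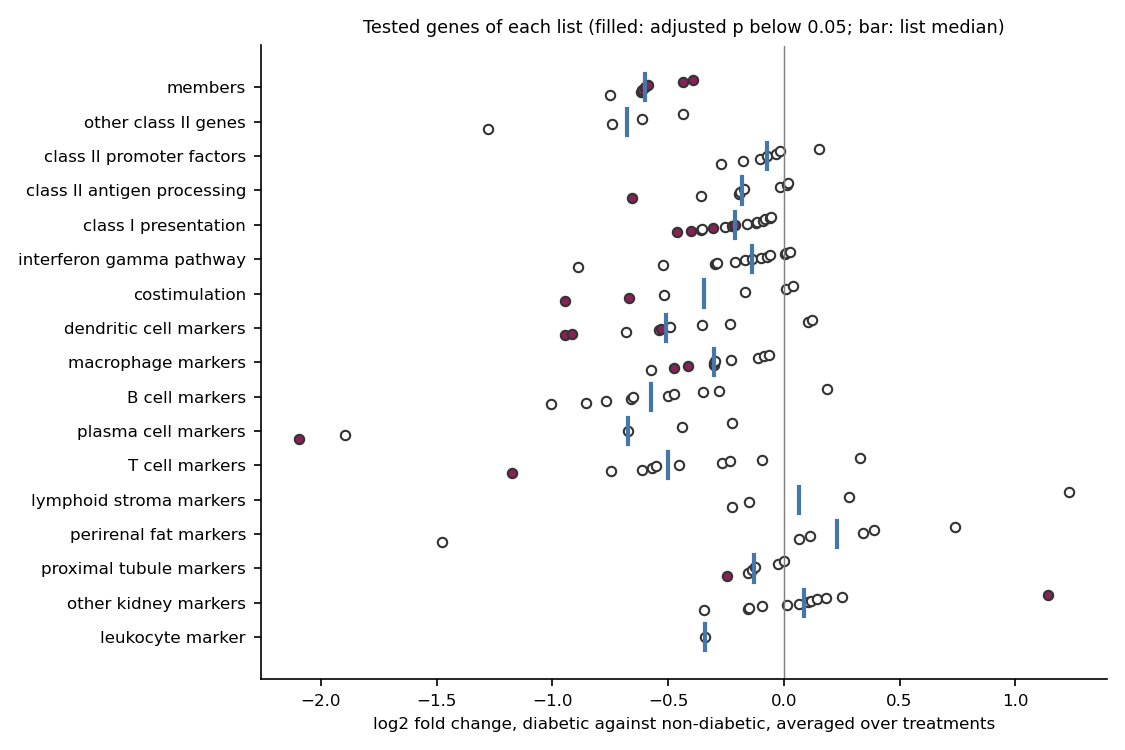
Log2 fold change, diabetic against non-diabetic averaged over treatments, of each tested gene by list, with filled points for an edgeR adjusted p below 0.05 and a bar at the list median. The members lie between −0.75 and −0.39, the dendritic, macrophage, B cell, plasma cell and T cell lists have medians from −0.67 to −0.30, and Aqp2 is the 1 called gene to the right of 0.

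The genes whose pattern over the 16 libraries was most like the mean of the 7 standardized members, by Pearson correlation of log2 CPM, were Igtp (0.957), Irgm2 (0.951), Hnrnpa3 (0.944), Laptm5 (0.938), Ctss (0.931), Mpeg1 (0.931), Pappa2 (0.930), Tgtp2 (0.927), Psmb9 (0.924) and Selplg (0.924). As deviations from the group means their correlations were 0.836, 0.846, 0.838, 0.795, 0.761, 0.835, 0.825, 0.838, 0.765 and 0.897, in the same order. Igtp, Irgm2 and Tgtp2 encode interferon-inducible GTPases, and Laptm5, Ctss, Mpeg1 and Selplg are genes of leukocytes. Without ND_C 1 and D_B12 1, the libraries farthest from the median, the correlations were 0.903 to 0.967. The genes were picked for following the members, which were lower in diabetic libraries, so a lower value there was largely set by the choice. Igtp had 1088 normalized counts in non-diabetic and 706 in diabetic libraries on average, and fell by 0.63 on the log2 scale (SE 0.12, adjusted p = 0.0168 by edgeR). Mpeg1 and Selplg were not called (adjusted p = 0.0528 and 0.119 by edgeR). Pappa2, a metalloprotease of a different class from the rest, had 118 and 23.4 and fell by 2.44 (SE 0.53, adjusted p = 0.0267 by edgeR).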

How the data were processed

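RNA was extracted from kidney with the RNeasy kit and libraries were made with the Watchmaker Total RNA kit. Per the labels, bcl2fastq 2.20.0, STAR, StringTie, DESeq2 and limma were used with GRCm39. The authors derived estimated counts per gene and per transcript with StringTie's prepDE script from paired reads, and deposited both tables. The read length given to that script and the strand setting were not given in the sources used here. Rounding changed 0 values.

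Genes with at least 100 counts in all were tested (25408 of 57186) with the quasi-likelihood test of edgeR 4.0.16 (R 4.3.3; TMM scaling). The model held 1 mean for each labelled group, which left 12 residual degrees of freedom, and calls were made at a Benjamini-Hochberg adjusted p of 0.05 over all genes. Alternatives were DESeq2 1.42.0, RLE normalization, no filter beyond 1 count, the replicate number as a block, the label date as a covariate, the compared groups alone, the 14 libraries of agreed status and each library left out. On simulated counts edgeR recovered 183 of 200 changed genes for the averaged diabetes comparison (25228 genes), with 7 false among 190 calls. DESeq2 recovered 175, with 20 false among 195 calls. These rates hold for the simulated counts alone, and recovery at the fold differences and spread of the members was not tested. The limit of 3 counts covers counting error only, while SE and SD values hold the spread between libraries. Transcript lengths came from GENCODE (GRCm39), and promoter windows from RefSeq (GRCm38.p6). Log2 CPM used a prior count of 2.

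The members and gene lists were chosen with earlier results of these data known. Named were the 7 members, the 2 most abundant genes of each list, its genes below the filter, its called genes (at most 4 per list and comparison, largest first), and the 10 genes most correlated with the members. A result that this rule would name in the interferon gamma list is not reported here.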

Additional observations from a re-analysis of the deposited data

Results flagged for a closer look

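Within the groups of 4 libraries, a library was singled out when its gap to the nearest other value, divided by the range of the group, was above Dixon's critical value for 4 samples. Of 28 groups of values examined, 2 met this. H2-Aa in ND_B12 4, at 3518 normalized counts, lay below the other 3 libraries of its group, which were at 5194 to 5434. H2-Ab1 in D_C 1, at 6482 normalized counts, lay above the other 3, which were at 3785 to 4102. Chance alone gives about 1 such group in 20, so 2 of 28 is close to that rate. The members moved together over the same libraries, so the groups of values are not separate cases. ND_B12 4 and D_C 1 are the libraries whose diabetes status differs between the labels and the published group means. The flags are no test of that difference.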

How the results depend on the processing

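For diabetes averaged over treatments, edgeR called 6 members in the reported fit and 0 with the label date as a covariate, where 0.0% of all tested genes were called; leaving out 1 library at a time gave 4 to 7, with 0.758% to 3.81% of all tested genes called lower. In untreated kidneys 0 members were called as reported, 7 with DESeq2, 7 with the 14 libraries of agreed status, and 0 to 7 with 1 library left out (7 without D_C 1 and 2 without ND_B12 4). In B12-treated kidneys 0 were called as reported, 5 with DESeq2, 4 with the 14 libraries, and 0 to 4 with 1 library left out (4 without ND_B12 4, D_C 1 or D_C 2). No member was called for B12 or the interaction under any alternative run. Ciita in D_B12 against D_C reversed from −0.25 to 0.076 with the label date, 0.15 with the 14 libraries and 0.16 without D_C 1 (−0.45 to 0.16 with 1 library left out); the cause was not tested. In the diabetes and B12 comparisons the other fold changes of members kept their sign. Replicate numbers did not pair the libraries (correlation of deviations −0.218 to 0.176 over 24 same-numbered pairs, and 6 of 16 libraries correlated best with their own number). With the replicate block, 6 members were called for the averaged diabetes comparison, with H2-DMb1 lost (adjusted p = 0.0668 by edgeR) and Ciita gained (0.0376), and 0 in each other comparison. That fit called 356 of 25408 tested genes lower in the averaged diabetes comparison.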
